A study of Mus musculus with 8 samples.

Results

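The genes described here are the cytosolic ribosomal protein genes of TX1072, a female mouse embryonic stem cell (ESC) line from a cross of C57BL/6 (B6) with CAST/EiJ (Cast) in which doxycycline (DOX) switches on *Xist* from the B6 X chromosome. Members were all symbols of the deposited tables that begin with Rpl or Rps followed by a number (with a, x, l or l1 allowed behind it), or by p0 to p2 or a. The pattern found 84 of 24542 gene symbols, 52 of the large (60S) and 32 of the small (40S) subunit. Of these, 3 are paralogs known from the germline or from muscle (*Rpl10l*, *Rpl39l* and *Rpl3l*), which were set apart as germline-type, and 5 are other paralogs (*Rpl22l1*, *Rpl7l1*, *Rpl32l*, *Rps27l* and *Rps4l*), which leaves 76 core genes. The 8 RNA-seq samples form 4 groups of 2, TX1072 labelled WT (Hdac3+/+) and Hdac3KO (Hdac3-/-, made from TX1072 by CRISPR/Cas9), each at 0 hr and at 24 hr of DOX at 1 µg/ml. All cells were female hybrid ESCs grown on gelatin with serum, LIF and 2i, and all carried the inducible *Xist*. Per the study's methods the Hdac3+/+ samples are duplicates of 1 line and the Hdac3-/- samples are 2 clones, so the spread within Hdac3+/+ holds no clonal variation and p-values measure the spread between these samples only.

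A ribosome holds one copy of nearly every ribosomal protein, and the cell makes these proteins in matched amounts from some of its most abundant mRNAs. Their transcripts begin with a run of pyrimidines, the 5′ terminal oligopyrimidine (TOP) tract, through which mTOR and LARP1 set their translation, and their promoters are known for binding sites of ETS factors such as GABPA and of YY1. In ESCs ribosome production is high, and the genes lie scattered over the genome. Because their processed pseudogenes are among the most numerous of any family, short reads cannot always be given to one copy.

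Totals ran from 6940375 to 17125156 counted reads per sample, of which 2165558 to 5183309 could be given to the B6 or the Cast allele. Scaling factors of the trimmed mean of M-values (TMM) lay between 0.97 and 1.03, and CPM below is the usual per-library scaled count with TMM scaling applied. *Hdac3* stood at 38.2 to 43.0 CPM in the 4 Hdac3+/+ samples and at 5.55 to 7.43 CPM in the 4 Hdac3-/- samples. *Xist* stood at 7.18 to 17.5 CPM at 0 hr and at 1563 to 2053 CPM at 24 hr, so no library went against its label. All 10 naive ESC markers had reads in every sample, and their summed level moved with the genotype, from 4914 to 5245 CPM in Hdac3+/+ and from 6050 to 6395 CPM in Hdac3-/-. The single naive markers did not all go this way. At 0 hr 6 differences were above 0 and 4 below, the lowest at -2.21 on the log2 scale. Of these markers 3 were called higher and 1 lower (edgeR), beside 6.27% and 7.31% of all genes. Primed markers summed to 211 to 243 CPM in Hdac3+/+ and to 150 to 187 CPM in Hdac3-/-, and two-cell-like markers to 8.19 to 10.9 CPM and to 0.402 to 6.50 CPM. Markers of primitive endoderm summed to 11.2 to 12.3 CPM in Hdac3+/+ and 15.1 to 26.9 CPM in Hdac3-/-, those of fibroblasts or feeders to 40.9 to 59.8 CPM and 28.9 to 40.5 CPM, and those of trophoblast to 45.2 to 87.5 CPM and 35.3 to 46.4 CPM. All but the trophoblast sums split the genotypes without overlap. At 0 hr, of the primed markers tested 2 differences were above 0 and 3 below, and of primitive endoderm 1 was above and 1 below. Those tested of trophoblast, fibroblasts or feeders and the two-cell-like state were all below 0. Only 1 of 5 two-cell-like markers had reads in every sample, and their sum at 0 hr was 0.427 and 6.50 CPM in the Hdac3-/- samples. No marker on these lists was at 0 in all 8 samples, and the part of these differences in the results was not tested.

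Sequences show 2 things about how these genes are told apart and started. The first is the coding sequence of *Rpl39*, which lines the exit tunnel of the 60S subunit, beside that of its germline-type paralog *Rpl39l*, both from the GENCODE transcripts of GRCm38 (*Rpl39* gene at chrX:37082520-37085402, minus strand, and *Rpl39l* gene at chr16:10170226-10174911, plus strand). Capitals mark the bases at which they differ, 23 of 156, so that reads over these bases can be told apart between this pair. By the rule for copies given below, *Rpl39* had 9 copies and *Rpl39l* had 0. Reads of *Rpl39* are therefore less certain against its own copies.
Rpl39: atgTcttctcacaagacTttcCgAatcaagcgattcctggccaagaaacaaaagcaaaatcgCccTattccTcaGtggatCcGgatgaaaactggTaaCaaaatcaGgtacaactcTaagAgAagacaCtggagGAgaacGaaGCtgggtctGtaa
Rpl39l: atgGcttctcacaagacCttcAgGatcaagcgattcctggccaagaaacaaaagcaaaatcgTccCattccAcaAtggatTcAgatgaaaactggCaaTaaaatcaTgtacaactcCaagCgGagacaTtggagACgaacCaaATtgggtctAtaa

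The second is the stretch around the start site that RefSeq annotates (build GRCm38.p6). It runs from 12 bases before to 18 bases after and including the start. The longest run of C and T near the start is in capitals. That of *Rpl4* had 14 bases, of which the window shows only the part nearest the start. In *Rpl4*, *Rps27l* and *Rpl19* the marked run ended before the annotated start. Shown are the members that stood higher in Hdac3-/- than in Hdac3+/+ before DOX (below) and had a run of at least 8 pyrimidines that reached within 5 bases of the start, followed by *Rps4x*, the X-linked gene on which the allelic results turn, whose run at its annotated start had 3 bases.
Rps24, chr14:24490666-24490695, plus strand: gcgctggggTCCTTCCTTgcgcgttgatat
Rps27l, chr9:66946074-66946103, plus strand: CTCCTCCCCgccgcctctatcccggaagtt
Rpl19, chr11:98026912-98026941, plus strand: gCTCTCCCCTTCgcagataatgggcggagc
Rps10, chr17:27635227-27635256, minus strand: ccgcgcacgCCCCTTCCTTTCCagcctccg
Rpl13a, chr7:45128728-45128757, minus strand: accctgcgacaagaCCTCCTCCTTTCCCag
Rpl4, chr9:64173375-64173404, plus strand: CTTTTCCTgtgggagcagccgggtagagag
Rps4x, chrX:102189374-102189403, minus strand: aggctgggcggagcaaCCCaggctccagcg

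A promoter window of 300 bases was at hand for 63 of the 84 members. Such a run of at least 8 pyrimidines was found in 25 of them (39.7%) and in 11.4% of 27025 genes with a window, and in 6 of the 17 members with a window that stood higher before DOX in Hdac3-/- (35.3%). The letters CCGGAAG of the ETS site, on either strand, were in 25 members (39.7%) against 9.93% of all genes, and the letters AAGATGGC of the YY1 site, on either strand, in 6 members (9.52%) against 3.19%. TATAAA was in 8 members (12.7%) against 15.7%. A match describes the letters in the window, and annotated starts can lie some bases from the start used in these cells. *Rps24*, *Rpl19* and *Rps27l* each also had another annotated start without such a run.

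Of the 84 members, 83 had reads in all 8 samples, and 69 stood above 100 CPM in every sample. *Rpl26*, a 60S protein, was listed at 0 in all 8 samples although every ribosome holds it, and *Rpl30* (1.23 to 3.01 CPM), *Rps27* (3.70 to 6.12 CPM) and *Rpl34* (9.21 to 17.6 CPM) were far below the rest of the core genes. Annotated transcripts of other genes were at least 95% identical to 77 members over a stretch of at least 80% of their coding length, up to 57 other genes for *Rpl21*. Whole transcripts were aligned, so the stretch need not lie in the coding sequence. *Rpl26* had 6 such copies, *Rpl30* had 12 and *Rps27* had 4. The authors kept 1 placement per read, so the levels of such genes are uncertain, and what part copies had in the low values was not tested. *Rps27l*, *Rps4l*, *Rpl3l* and *Rpl39l* were among the members with no copy under this rule.

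Per length of the annotated transcript, the highest mean levels over the 8 samples were those of *Rpl29* (5455 ± 330 TPM, SD, n = 8), *Rpl23a* (4741 ± 592), *Rpl36* (4436 ± 369), *Rpl17* (4406 ± 492) and *Rpl28* (4374 ± 233), all of the 60S subunit. Their ranges overlapped from one to the next in this order. With the germline-type paralogs left aside, the lowest after *Rpl26* were *Rpl30* (6.53 ± 1.57 TPM), *Rpl22l1* (24.2 ± 3.26 TPM), *Rps27* (33.9 ± 5.13 TPM) and *Rps15a* (46.1 ± 4.61 TPM). The value of *Rps15a* (86.3 to 117 CPM) comes from division by an annotated transcript of 5179 bases, of which only 390 are coding, so its place in this order depends on the annotated ends.

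Most paralogs took a small part of the reads of the pair they form with their counterpart. *Rpl10l* took 4.18% of the reads of the pair with *Rpl10*, *Rpl39l* 4.56% of those with *Rpl39*, *Rpl3l* 0.199% with *Rpl3*, *Rpl22l1* 2.07% with *Rpl22* and the annotated processed pseudogene *Rpl32l* 2.18% with *Rpl32*. *Rpl32l* is 97.5% identical to *Rpl32* over 398 aligned bases, while *Rpl10l* is 84.8% identical to *Rpl10*. *Rpl7l1*, a nucleolar paralog, took 29.6% with *Rpl7*, and *Rps4l*, annotated as a transcribed processed pseudogene and 79.9% identical to *Rps4x*, took 29.0% with *Rps4x*. *Rps27l*, a paralog known as a p53 target, took 94.0% of the reads of the pair with *Rps27*, whose own reads numbered only 443 over all samples.

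Summed over the members, the share of counted reads in Hdac3+/+ was 4.63 and 4.79% before DOX and 5.05 and 5.10% after 24 hr. The Hdac3-/- samples had 5.42 and 5.39% before DOX and 5.40 and 5.41% after it. All 4 Hdac3-/- samples lay above all 4 Hdac3+/+ samples, and the Hdac3+/+ samples at 0 hr were the lowest. The summed naive markers given above split the genotypes in the same direction, although 4 of the 10 went the other way at 0 hr, and their part was not tested. In bulk samples fewer cells of a type and less RNA per cell cannot be told apart. Before DOX the 60S members took 3.16 ± 0.0791% in Hdac3+/+ and 3.66 ± 0.0306% in Hdac3-/-, and the 40S members took 1.55 ± 0.0365% and 1.75 ± 0.00973% (mean and SD of 2 samples). The 60S to 40S ratio of reads stayed between 2.04 and 2.12. Mitochondrial ribosomal protein genes, a family of 78 symbols that serves the mitochondrial ribosome, summed to 0.302 to 0.334% with the Hdac3+/+ samples at both ends of the range.

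**Figure D1:**
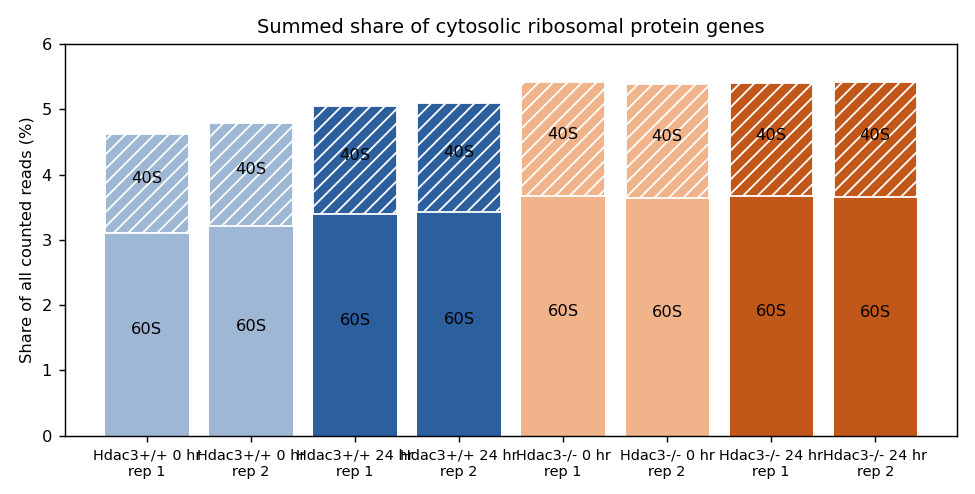
Share of all counted reads (%, vertical axis from 0) taken by 60S (plain) and 40S (hatched) ribosomal protein genes in each of the 8 samples. The total rises from 4.63 and 4.79% in Hdac3+/+ at 0 hr to between 5.39 and 5.42% in the 4 Hdac3-/- samples.

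The genotypes were compared at 0 hr, over the 4 samples before DOX. Loss of Hdac3 and other differences between the clones and the parental line cannot be told apart in this design. Of 83 members tested, 21 were higher and 0 were lower in Hdac3-/- at an adjusted p under 0.05 (edgeR quasi-likelihood test, Benjamini-Hochberg over 13315 genes), beside 6.27% of all genes higher and 7.31% lower. Unadjusted, 48 were higher and 0 lower at p under 0.05, beside 1913 and 2034 of all 13315 genes. DESeq2 called 24 higher and 0 lower (783 and 893 of all genes), and limma-voom 23 and 0 (771 and 952). Both Hdac3-/- samples lay above both Hdac3+/+ samples for 64 members (28.3% of all genes) and below for 0 (30.6%). The changes were small, from 0.28 to 0.59 on the log2 scale among those called (1.22- to 1.51-fold), with a median over the 83 members of 0.25 beside 0.00 over all genes, and none passed an absolute log2 difference of 1. By subunit, 15 of 51 tested 60S members (29.4%) and 6 of 32 40S members (18.8%) were called.

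*Rps24*, a 40S protein that is mutated in Diamond-Blackfan anaemia, had the largest called difference. It stood at 1391 and 1470 CPM in Hdac3+/+ and at 2186 and 2084 CPM in Hdac3-/-, a log2 difference of 0.59 (SE 0.08, adjusted p = 0.00452, edgeR). The groups were well apart, and the 24 hr samples of Hdac3+/+ (1613 and 1723 CPM) lay between them.
*Rpl19*, a 60S protein, stood at 1026 and 1054 CPM in Hdac3+/+ and at 1434 and 1409 CPM in Hdac3-/-, a difference of 0.46 (SE 0.08, adjusted p = 0.00928, edgeR). *Rpl17*, near the tunnel exit, went from 1121 and 1238 CPM to 1646 and 1579 CPM, a difference of 0.46 (SE 0.09, adjusted p = 0.0136, edgeR). *Rpl11*, which together with *Rpl5* and 5S rRNA can bind Mdm2, stood at 236 and 251 CPM in Hdac3+/+ and at 334 and 311 CPM in Hdac3-/-, a difference of 0.42 (SE 0.09, adjusted p = 0.0243, edgeR). In none of these genes did the 2 genotypes overlap at 0 hr. *Rps27l* stood at 57.1 and 65.6 CPM against 85.2 and 89.4 CPM, a difference of 0.52 (SE 0.11, adjusted p = 0.0247, edgeR).

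**Figure D2:**
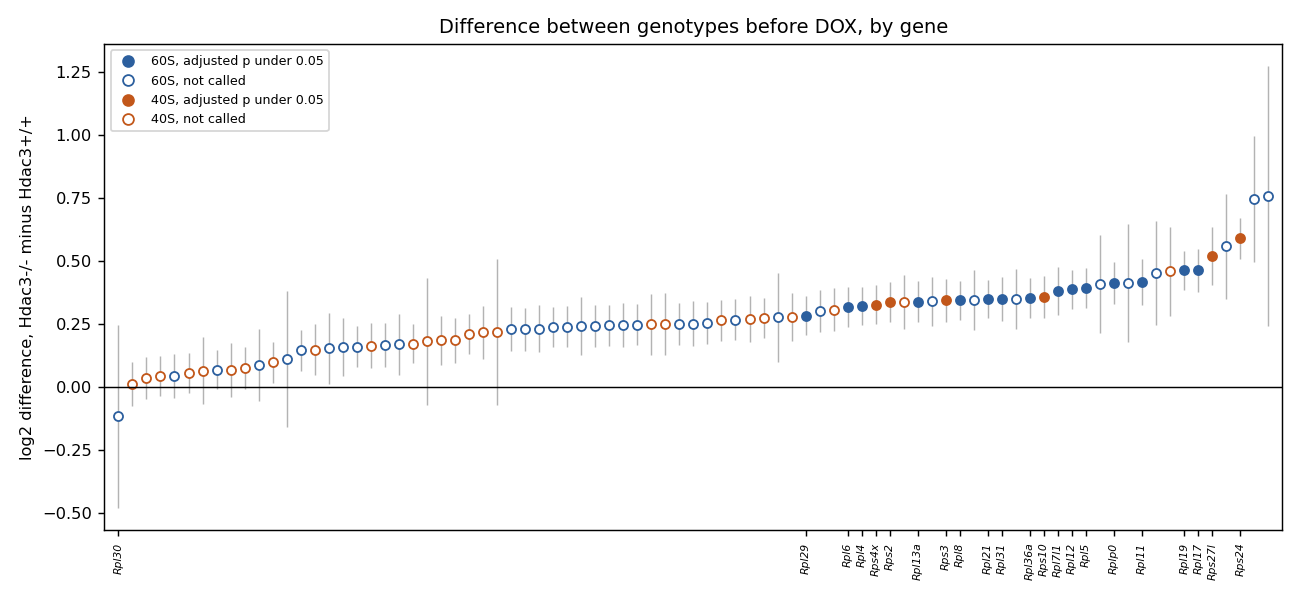
Difference in level between Hdac3-/- and Hdac3+/+ before DOX (log2, vertical axis) for the 83 members with reads, in rising order, with bars of 1 standard error; blue is 60S, orange is 40S, filled points have an adjusted p under 0.05 and are named on the horizontal axis, as is *Rpl30*. All points but *Rpl30* lie above 0, and the 21 filled points run from 0.28 to 0.59.

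The remaining called members were *Rplp0*, *Rpl5*, *Rpl12*, *Rpl7l1*, *Rps10*, *Rpl36a*, *Rpl31*, *Rpl21*, *Rpl8*, *Rps3*, *Rpl13a*, *Rps2*, *Rps4x*, *Rpl4*, *Rpl6* and *Rpl29*, with differences from 0.28 to 0.41, named here because their number was counted. The nucleolar paralog *Rpl7l1* was at 133 and 145 CPM in Hdac3+/+ and at 174 and 184 CPM in Hdac3-/- (difference 0.38, SE 0.10, adjusted p = 0.0389, edgeR). Of the germline-type paralogs 0 of 3 were called. *Rpl39l* stood at 7.09 and 6.85 CPM against 9.77 and 9.14 CPM (difference 0.45, SE 0.21, adjusted p = 0.189, edgeR). *Rpl10l* stood at 54.2 and 62.5 CPM against 67.6 and 62.4 CPM with overlapping groups. *Rpl3l* had 4 to 28 reads a sample, too few to show a difference at this depth. Among the other paralogs *Rps4l* stood at 333 and 350 CPM in Hdac3+/+ and at 334 and 349 CPM in Hdac3-/-, a difference of 0.01 (SE 0.09).

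The count of 21 rests on which libraries were used. Without Hdac3+/+ replicate 1 at 0 hr it was 1 (*Rps24*) beside 256 of 13315 genes called higher, and without Hdac3+/+ replicate 2 it was 7 beside 202. Without Hdac3-/- replicate 1 it was 40 beside 1465, and without Hdac3-/- replicate 2 it was 37 beside 1552. The lone sample is assumed in these fits to vary like the other group, and the 1 of 83 is no larger a share than that of all genes. By library size alone, chosen after seeing the data, 12 members were higher and 0 lower, while all genes split into 607 higher and 1225 lower in place of 835 and 973.

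Hdac3+/+ replicate 1 at 0 hr stood apart for a few genes. It lay more than 1.5-fold below replicate 2 in 5 of 83 members, *Rps29* (ratio 1.89), *Rpl39* (1.88), *Rplp2* (1.62), *Rps28* (1.53) and *Rpl23a* (1.53), whose coding lengths were 153 to 468 bases, while 0.862% of 10325 genes with a mean of over 50 reads differed by that much in this direction. Other short members did not, such as *Rpl41* (75 bases, ratio 1.06) and *Rpl38* (210 bases, ratio 1.01). No member exceeded 1.5-fold between the replicates of Hdac3+/+ at 24 hr or of Hdac3-/- at 0 hr. *Rpl39*, one of the 5, stood at 94.0 and 177 CPM in Hdac3+/+ and at 210 and 241 CPM in Hdac3-/- before DOX, a difference of 0.75 that was not called (SE 0.25, adjusted p = 0.0911, edgeR). It was called under 5 of 13 alternatives, and the difference was 0.36 without Hdac3+/+ replicate 1 and 1.28 without its replicate 2.

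**Figure D3:**
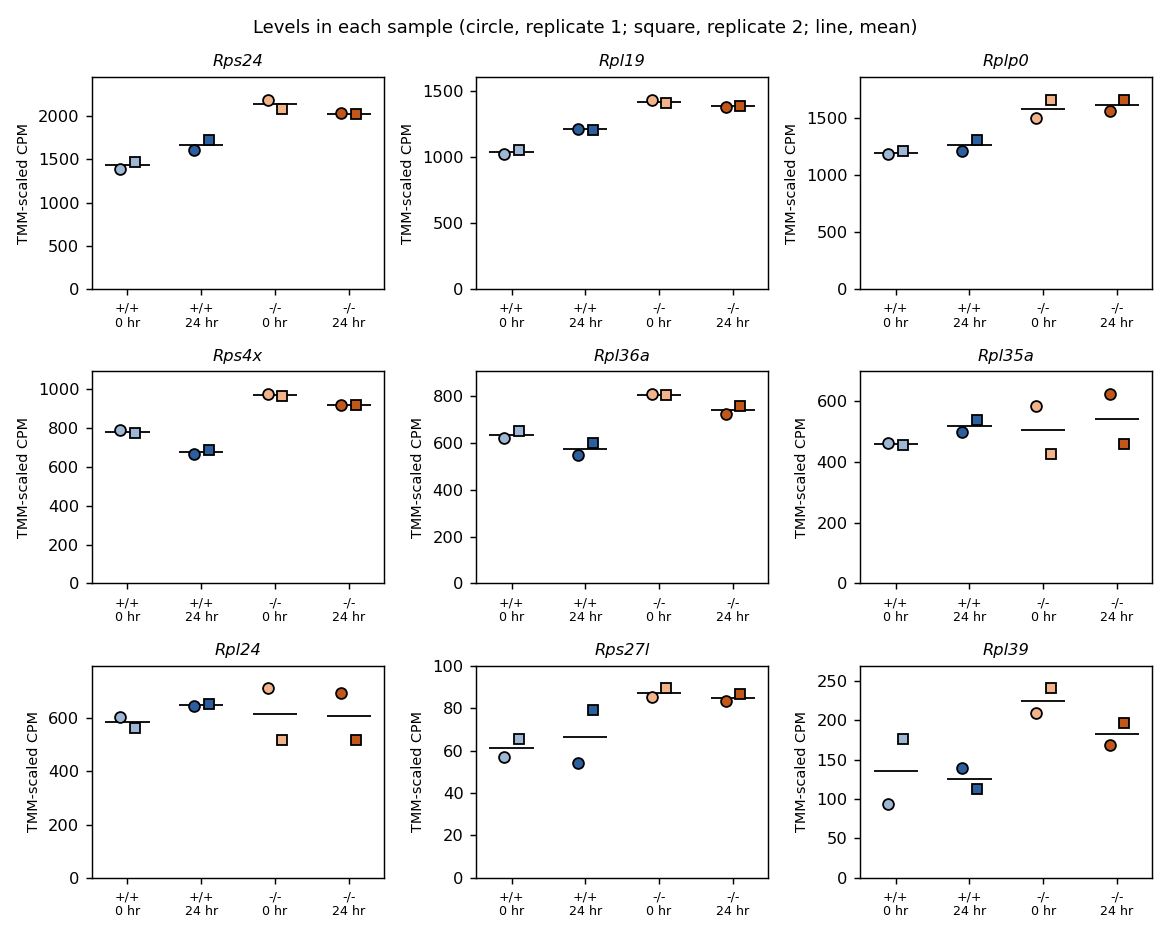
Level (TMM-scaled CPM, each vertical axis from 0) of 9 named members in each sample of the 4 groups, with the mean as a line. *Rps24*, *Rpl19*, *Rplp0*, *Rps4x* and *Rpl36a* are higher in Hdac3-/- at both times, *Rpl35a* and *Rpl24* differ between the Hdac3-/- replicates, and *Rpl39* differs between the Hdac3+/+ replicates at 0 hr.

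After 24 hr of DOX members were again called in one direction only. In the fit over all 8 samples, 10 of 83 members were higher in Hdac3-/- and 0 lower (6.14% and 7.02% of 13869 genes, edgeR). At an unadjusted p under 0.05, 23 were higher and 1 lower, beside 1951 and 2032 of all genes. DESeq2 called 7 higher and 0 lower (757 and 852 of all genes), and limma-voom 10 and 0 (691 and 867). The median was 0.11 beside 0.01 over all genes. Both Hdac3-/- samples lay above both Hdac3+/+ samples for 51 members (28.3% of all genes) and below for 5 (28.6%). Called at both times were 9 of the members, 9 of 21 at 0 hr and 9 of 10 at 24 hr, with *Rpl9* called at 24 hr (difference 0.28, SE 0.07, adjusted p = 0.0391, edgeR) and just missing the threshold at 0 hr (difference 0.30, adjusted p = 0.0505, edgeR), and the difference between the times is the interaction tested below. The count was 1 without Hdac3+/+ replicate 1 at 24 hr (213 of 13869 genes called higher) and 2 without its replicate 2 (209). It was 5 without Hdac3-/- replicate 1 at 24 hr (558) and 2 without its replicate 2 (784), and 6 without either Hdac3+/+ sample of 0 hr (644 and 648). With the 4 samples of 24 hr alone it was 4 (680 of 13184). Without Hdac3+/+ replicate 1 or Hdac3-/- replicate 2 of 24 hr, and in the 4 samples alone, the members' share was thus below that of all genes.

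Among the called members, the 2 largest differences at 24 hr were those of X-linked genes. *Rps4x*, a 40S protein of the RNA-binding face, stood at 668 and 688 CPM in Hdac3+/+ and at 919 and 921 CPM in Hdac3-/- (difference 0.44, SE 0.06, adjusted p = 0.00322, edgeR). *Rpl36a* stood at 550 and 602 CPM against 725 and 757 CPM (difference 0.36, SE 0.07, adjusted p = 0.0140, edgeR). Both genes also stood higher before DOX, by 0.33 (SE 0.08, adjusted p = 0.0316, edgeR) for *Rps4x* and 0.35 (SE 0.08, adjusted p = 0.0280, edgeR) for *Rpl36a*. Next came the autosomal *Rplp0*, which anchors the ribosomal stalk and went from 1215 and 1311 CPM to 1563 and 1658 CPM (difference 0.35, SE 0.08, adjusted p = 0.0189, edgeR), *Rps2*, at the mRNA entry channel, with 851 and 781 CPM against 988 and 1048 CPM (difference 0.32, SE 0.07, adjusted p = 0.0251, edgeR), and *Rps24* with a difference of 0.28 (SE 0.07, adjusted p = 0.0266, edgeR). For these 5 genes the groups did not overlap.

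In total counts, whether members were called with DOX depended on the model. In the fit without a replicate block, 0 of 83 were called in Hdac3+/+, beside 0.00721% of 13869 genes higher and 0.209% lower (edgeR). At an unadjusted p under 0.05, 12 were higher and 1 lower, beside 332 and 689 of all genes. DESeq2 called 0 members (5 genes higher and 111 lower), as did limma-voom (1 and 11). Yet 75 differences were above 0, with a median of 0.12 (0.00 over all genes), and both 24 hr samples lay above both 0 hr samples for 53 members (20.0% of all genes) and below for 4 (21.6%). *Rpl19* was at 1212 and 1209 CPM and *Rps24* at 1613 and 1723 CPM at 24 hr in Hdac3+/+, above their 0 hr samples given before. In Hdac3-/- 0 were called (0.00721% of all genes higher, 0.0144% lower, edgeR) and 0 passed an unadjusted p of 0.05 (103 genes higher and 171 lower). There DESeq2 and limma-voom called 0 members, and the median was -0.02. With the replicate number as a block, 30 members were higher and 3 lower in Hdac3+/+, beside 664 and 863 of 13869 genes (edgeR), and the X-linked *Rps4x*, *Rpl36a* and *Rpl10* were called lower there. With the block 0 were higher and 1 was lower in Hdac3-/-, *Rpl39* (adjusted p = 0.0208, edgeR), beside 91 and 182 genes. The labels do not say that a number pairs the samples.

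Whether DOX acted differently in the 2 genotypes was tested as an interaction, in which 0 of 83 members and 0% of all genes were called in either direction (edgeR). At an unadjusted p under 0.05, 0 members were higher and 6 lower, beside 189 and 76 of 13869 genes, and DESeq2 and limma-voom called 0 members. The median of the interaction was -0.13 over the members. With the block 0 members were higher and 14 lower, beside 181 and 86 genes (edgeR). The comparisons of genotype at 0 hr, of DOX in Hdac3+/+ and the interaction share the Hdac3+/+ samples of 0 hr, replicate 1 included, so their values for the members are not independent of each other.

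Of the 4 X-linked members, *Rps4x* could be followed by allele, since DOX silences the B6 X. Before DOX *Rps4x* stood at 788 and 774 CPM in Hdac3+/+, and with 24 hr of DOX it stood at 668 and 688 CPM, a difference of -0.20 in total level that was not called without the block (SE 0.06, adjusted p = 0.39, edgeR). The d-score, B6/(B6 + Cast), in Hdac3+/+ before DOX was 0.50 and 0.507, and after 24 hr it was 0.382 and 0.413, on 1733 to 3740 allelic reads a sample. The Hdac3-/- samples had 0.521 and 0.524 before DOX and 0.467 and 0.458 with it, on 3139 to 5645 reads. Per the study's methods, 1 of the 2 mutant samples of its native ChIP-seq held some XO cells, and d-scores there were adjusted. Whether this holds for the RNA-seq samples is not stated, and d-scores here were not adjusted. Over 302 X-linked genes the median d-score in Hdac3-/- before DOX was 0.503 and 0.481. Times did not overlap in either genotype, and exact 95% binomial intervals, which cover counting error only, reached from 0.362 to 0.437 over the Hdac3+/+ samples at 24 hr and from 0.440 to 0.484 over the Hdac3-/- samples.

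The B6:Cast ratio of *Rps4x* fell by 0.62 on the log2 scale in Hdac3+/+ (SE 0.07, adjusted p = 4.13e-05, edgeR over 9595 genes) and by 0.35 in Hdac3-/- (SE 0.07, adjusted p = 0.0419, edgeR). It was the one member called of 76 tested, beside 1.59% of all genes lower in Hdac3+/+ and 0.396% in Hdac3-/-. The call in Hdac3-/- was lost under 8 of 12 alternatives, among them a minimum of 50 allelic reads (adjusted p = 0.0626, edgeR) and limma on the log2 ratios (adjusted p = 0.98), the latter also ending the call in Hdac3+/+ (adjusted p = 0.237). The difference between the genotypes was 0.28 (SE 0.10, adjusted p = 0.955, edgeR) and not called, while 0.208% of all genes were called higher in this interaction, and it passed when X-linked genes were adjusted apart from autosomal ones (adjusted p = 0.0493, edgeR). Of the 76 members, 0 were called in the interaction, and limma called 0. At an unadjusted p under 0.05, 1 was higher and 3 were lower, beside 284 and 151 of 9595 genes.

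Split by allele, B6 reads of *Rps4x* in Hdac3+/+ were 141 and 135 CPM before DOX and 87.8 and 102 with it, while Cast reads were 141 and 131 before and 142 and 145 after. In Hdac3-/- B6 reads went from 175 and 177 CPM to 152 and 144 CPM, and Cast reads from 161 and 161 to 173 and 171. The mean d-score of *Rps4x* changed by -0.11 in Hdac3+/+ against a median of -0.21 over 302 X-linked genes, of which 237 had a larger fall and 64 a smaller one. In Hdac3-/- the change was -0.06 against a median of -0.09, with 194 larger and 107 smaller falls.

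**Figure D4:**
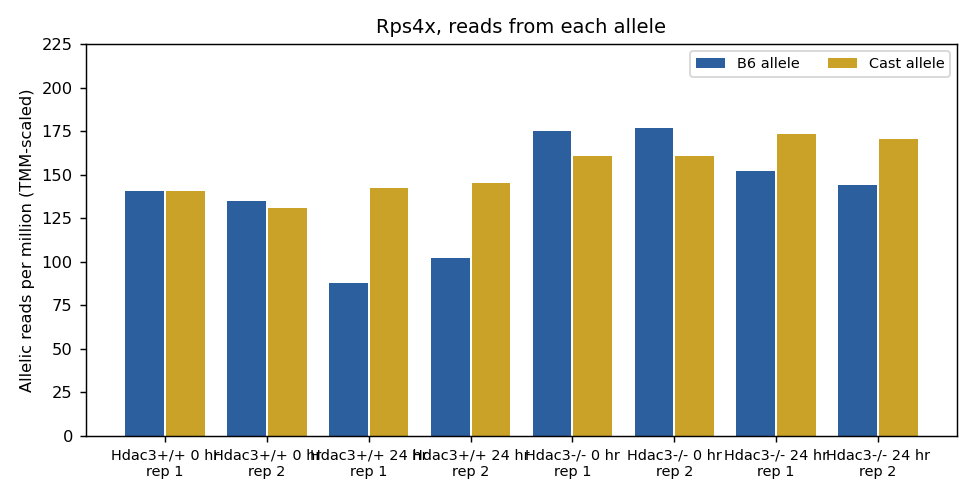
B6 and Cast reads of *Rps4x* (TMM-scaled CPM, vertical axis from 0) in each sample. B6 reads fall from 141 and 135 to 87.8 and 102 in Hdac3+/+ with 24 hr of DOX and from 175 and 177 to 152 and 144 in Hdac3-/-, while Cast reads lie between 131 and 173 throughout.

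The other X-linked members could be read by allele only in part. *Rpl10*, a late-joining 60S protein at the subunit interface, had a d-score of 0.81 to 0.88 in all 8 samples, before and after DOX, but only 1.01 to 1.93% of its reads were allelic and it had 9 copies. Its total level in Hdac3+/+ was 1308 and 1463 CPM before and 1273 and 1270 CPM after DOX (difference -0.12, SE 0.07, adjusted p = 0.817, edgeR). *Rpl36a* had 3 to 15 allelic reads a sample, all of them Cast, which at 15 reads allows a B6 share of up to 0.218 (exact 95% interval). In total its Hdac3+/+ samples had 621 and 653 CPM before and 550 and 602 CPM after DOX (difference -0.15, SE 0.07, adjusted p = 0.757, edgeR), and at 810 and 804 CPM and then 725 and 757 CPM in Hdac3-/-. *Rpl39* had no allelic read.

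Chromosome 16 carries *Rpl24*, *Rpl35a* and *Rpl39l*, and there the Hdac3-/- replicates differed from each other. Over 307 genes of this chromosome the median d-score was 0.332 to 0.341 in the 4 Hdac3+/+ samples, 0.333 in both samples of Hdac3-/- replicate 1, and 0.50 and 0.493 in those of replicate 2, whose median level over 333 genes was -0.48 on the log2 scale against Hdac3+/+ at 0 hr at both times. *Rpl35a*, a 60S protein, stood at 584 and 622 CPM at 0 and 24 hr in replicate 1 and at 426 and 457 CPM in replicate 2. Its d-score was 0.452 and 0.451 in replicate 1 and 0.654 and 0.647 in replicate 2, while the Hdac3+/+ samples had 0.455 to 0.495. B6 reads at 0 hr were alike, 197 and 207 CPM, and Cast reads were 239 CPM in replicate 1 and 110 CPM in replicate 2.

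*Rpl24*, at the subunit bridge, showed the same split in level, 712 and 693 CPM in replicate 1 against 518 and 519 CPM in replicate 2, but had only 26 to 84 allelic reads. Its d-score was 0.452 and 0.342 in replicate 1 and 0.549 and 0.738 in replicate 2. *Rpl39l* did not split in level, at 9.77 and 8.80 CPM in replicate 1 and 9.14 and 9.84 CPM in replicate 2, and its d-score was 0.356 and 0.440 in replicate 1 and 0.578 and 0.631 in replicate 2. Means of the Hdac3-/- groups for *Rpl24* and *Rpl35a* therefore average 2 levels, and neither gene was called in any comparison of total counts.

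**Figure D5:**
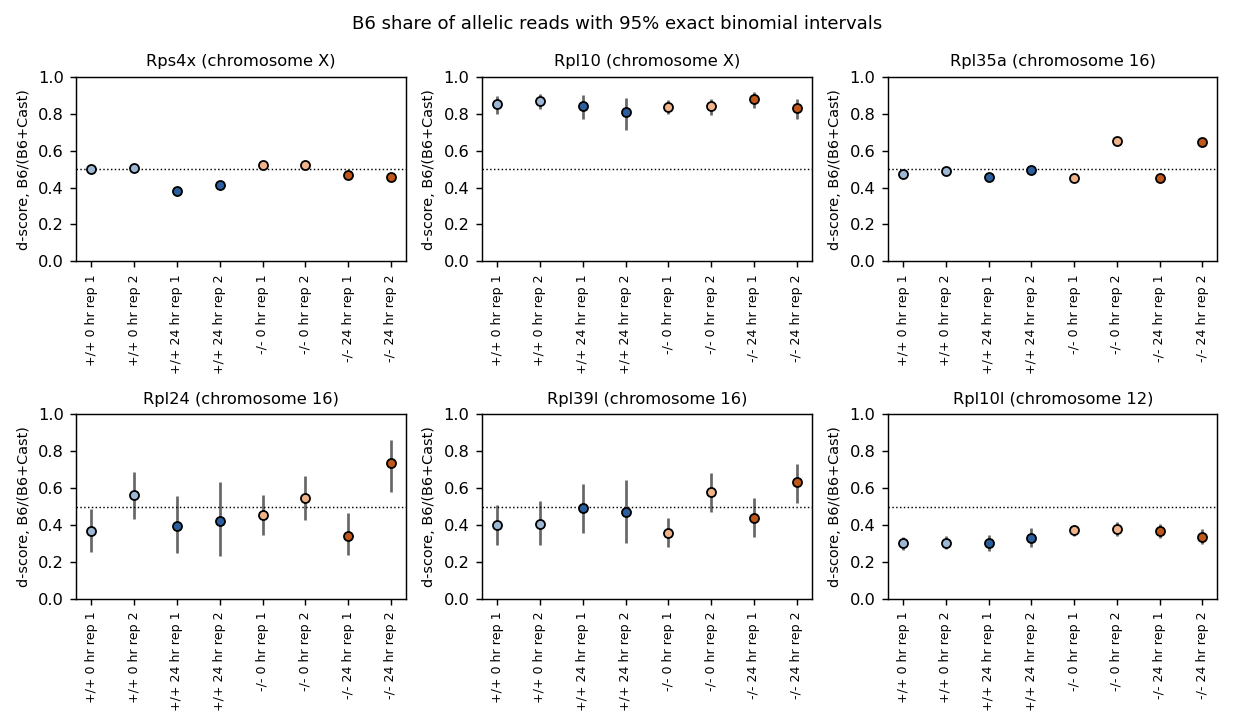
B6 share of the allelic reads (d-score, axis from 0 to 1, dotted line at 0.5) of 6 named members in each sample, with exact 95% binomial intervals. *Rps4x* drops with DOX to 0.382 and 0.413 in Hdac3+/+, *Rpl10* stays above 0.8, and *Rpl35a* is near 0.65 in Hdac3-/- replicate 2 and below 0.5 in the other samples.

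Of the 84 members, 76 reached 10 or more allelic reads in all 8 samples, and 4 had none in any. For 71 members outside X and 16 the mean d-score had a median of 0.510, against 0.507 over 8841 genes of the same chromosomes, and 40 of the 71 (56.3%) lay between 0.45 and 0.55 (52.3% of all). Outside 0.3 to 0.7 were 9 members (12.7%, against 7.93% of all genes). Chosen after their values were seen, *Rps23* had 0.105 to 0.242 over the samples on 21 to 61 reads, *Rps2* had 0.262 to 0.318 on 4388 to 13050 reads, *Rpl37* had 0.754 to 0.828, *Rpl37a* had 0.769 to 0.812 and *Rpl32l* had 0.971 to 1.00. *Rps2* had 26 copies by the rule above and *Rpl37* had 2. Each range covers all 4 groups, and whether they come from the alleles or from where reads were placed was not tested. Between the genotypes at 0 hr, 0 of 76 ratios were called (0.313% of all genes higher and 0.354% lower, edgeR), and limma called 0. At an unadjusted p under 0.05, 2 were higher and 3 lower, beside 455 and 365 of 9595 genes. *Rpl10l* was one of these members, with a d-score of 0.301 and 0.304 in Hdac3+/+ and 0.371 and 0.377 in Hdac3-/- (difference 0.46, SE 0.13, adjusted p = 0.199, edgeR).

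Genes that work with the ribosome were read beside the members from fixed lists. At 0 hr, 4 of 20 translation factors and other genes with TOP mRNAs were higher and 0 lower in Hdac3-/-, the largest being *Pabpc1*, the poly(A)-binding protein (3738 and 4269 CPM against 6417 and 6322 CPM, difference 0.68), *Eef2*, the translocation factor (0.47), and *Rack1*, a scaffold on the 40S head (0.40). Of 40 ribosome assembly factors 4 were higher and 0 lower, led by the snoRNP protein gene *Nop56* (0.44), *Nop14* (0.38) and the 60S export adaptor gene *Nmd3* (0.35). Of 15 genes of RNA polymerase I, which makes the large rRNAs, 0 were called, with 1 higher and 1 lower at an unadjusted p under 0.05. Of 18 regulators 2 were higher, *Larp1*, which binds TOP mRNAs (0.39), and *Eif4ebp1*, which encodes an mTOR target (0.31). Of 78 mitochondrial ribosomal protein genes 1 was higher, *Mrpl1* (0.48), with a median of 0.07, and of 4 further ribosomal protein genes that the symbol pattern leaves out, 0 were called, with 1 higher and 0 lower at an unadjusted p under 0.05. These counts are to be read against the 6.27% of all genes called higher and the 7.31% called lower. Unadjusted, 1913 of 13315 genes were higher and 2034 lower.

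At 24 hr 2 of 20 TOP genes were higher (*Pabpc1*, 0.57, and *Eef2*, 0.40), and of 40 assembly factors 5 were higher and 1 lower. Of 15 polymerase I genes 1 was lower, of 18 regulators 1 was higher and 1 lower, and of 78 mitochondrial ribosomal protein genes 1 was higher. Beside them, 6.14% of all genes were called higher and 7.02% lower. Among the assembly factors *Gnl3l*, an X-linked nucleolar GTPase gene, had the largest difference (0.48), ahead of *Nop14* (0.38) and *Gnl2* (0.37), while *Grwd1* was lower (-0.46). *Larp1* was higher (0.41), *Mrpl1* was higher (0.50), *Mycn*, a Myc family gene, was lower (-0.44) and *Rrn3*, a polymerase I initiation factor gene on chromosome 16, was lower (-0.35). In total counts, 0 genes of these lists were called with DOX in either genotype or in the interaction (edgeR). By allele, *Gnl3l* was the one gene of these lists called with DOX. Its B6:Cast ratio changed by -2.02 on the log2 scale in Hdac3+/+ and by -0.68 in Hdac3-/-, with a called interaction of 1.34 (SE 0.17, adjusted p = 0.00189, edgeR). Between the genotypes at 0 hr, 1 of 16 regulators tested by allele was called, with a lower ratio in Hdac3-/- (0.354% of all genes, edgeR). At an unadjusted p under 0.05 in total counts, 4 mitochondrial ribosomal protein genes, 1 TOP gene and 1 regulator were higher with DOX and 3 assembly factors lower in Hdac3+/+. Of all 13869 genes, 332 were higher and 689 lower there. In Hdac3-/- 0 genes of the lists passed in either direction, beside 103 higher and 171 lower of all genes.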

How the data were processed

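Total RNA of 8 samples was depleted of rRNA and sequenced in pairs. Per the study's methods and the submitters' processing notes, the authors mapped reads to mm10 with TopHat2 2.1.0, keeping 1 location per read, and counted them over exons by strand with featureCounts 1.5.1. The authors deposited counts per gene (all, B6 and Cast reads) and the fraction of B6 reads. For the d-scores of single members by sample this fraction was recomputed here from the counts. Values over sets of genes, and the place of *Rps4x* among X-linked genes, used the deposited fraction. How the reads of these RNA-seq samples were given to alleles is not given in the sources used here. Totals of 6940375 to 17125156 reads set the precision.

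Members, lists and tests were chosen with earlier results of these data known. Totals were tested with edgeR 4.0.16 (quasi-likelihood, TMM) in R 4.3.3 over genes that passed 1 TPM in 2 or more samples of the fit, on the 4 samples of 0 hr for the genotypes before DOX and on all 8 samples otherwise, and called at a Benjamini-Hochberg adjusted p under 0.05. Allelic ratios were tested with edgeR over genes with at least 10 allelic reads in every sample, with an effect per sample and a B6 term per group. Alternatives were DESeq2 1.42.0, limma 3.58.1 (voom on totals), other scalings, filters, a replicate block and leaving out each sample. Lengths and positions came from GENCODE M21 (GRCm38), in which 660 of 24542 symbols found no match, copies from BLAST 2.17.0, and promoters from RefSeq.

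Named were X-linked and chromosome 16 members, paralogs, the 5 members highest and lowest in TPM, the 5 largest called changes per comparison and direction, and the 3 largest per list. Group labels gave replicate numbers but no clone. One item is not reported here.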

Additional observations from a re-analysis of the deposited data

How the results depend on the processing

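Counts of members called are given, with those of all genes called in the same direction behind them in parentheses. Between the genotypes at 0 hr, 21 (835 of 13315) became 37 without a filter on low counts (1477 of 19601), 46 with the replicate block (1419 of 13315), 12 by library size alone, chosen after seeing the data (607), 0 with an absolute log2 difference above 1 required, and 1 to 40 when 1 sample was left out. At 24 hr, 10 (851 of 13869) became 19 with the block (1643), 4 in the 4 samples alone (680 of 13184), 0 with the log2 limit and 1 to 7 when 1 sample was left out. For DOX in Hdac3+/+, 0 became 2 higher without the filter (39 of 20507) and 33 with the block, of which 30 were higher (664 of 13869) and 3 lower (863). In Hdac3-/- 0 became 1 lower with the block (182), and the interaction went from 0 to 14 lower with the block (86). For the B6:Cast ratio, the 1 call in Hdac3+/+ became 0 with limma, and the 1 in Hdac3-/- became 0 with limma or at least 50 allelic reads, 2 with the block and 0 to 1 when 1 sample was left out. The allelic interaction went from 0 to 1 with X-linked genes adjusted apart and to 2 lower with the block, and the genotypes at 0 hr gave 0 to 1 when 1 sample was left out. A lone sample is assumed there to vary like the others. Without *Rn45s* the mean shares were 5.09% and 5.50% in Hdac3+/+ and 5.88% and 5.86% in Hdac3-/- at 0 and 24 hr. The cause of these shifts was not tested.

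The labels do not say that a replicate number pairs samples. Differences between replicates 2 and 1 correlated across 10322 genes with r = 0.793 between the times of Hdac3-/-, 0.444 between those of Hdac3+/+ and 0.278 to 0.316 between genotypes, over genes that are not independent. Of 377 alternatives for 26 tests of single genes, 309 kept direction and side of the threshold, 59 lost the call, 9 gained it and 0 reversed. With 2 samples a group, small changes in genes of few reads were not detectable.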
